A study of Mus musculus with 24 samples.

Results

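The 2′-5′-oligoadenylate synthetase (OAS) family was followed in mouse mammary tumours by 7 genes, Oas1a, Oas1b, Oas1g, Oas2, Oas3, Oasl1 and Oasl2. They were chosen by name, as the rows whose Ensembl identifiers map to these symbols, and are 7 of 53465 gene rows. All 7 passed the filter on low counts in every comparison. Tumours of the p53-knockout, triple-negative 2153L model were grown from fresh fragments in the cleared mammary fat pads of female BALB/c hosts aged 6 to 8 weeks, and treatment began at about 100 mm3. Of the 4 groups, 1 received vehicle, 1 the small molecule ORIN1001 at 150 mg/kg daily by mouth, which blocks the ribonuclease of IRE1α, 1 docetaxel (a taxane that stabilises microtubules, 10 mg/kg weekly into the peritoneum) and 1 both drugs together, called the combination here. Single-drug animals also received vehicle. Each group had 3 tumours, and each tumour gave an input library of total RNA and a J2 library of RNA pulled down with an antibody to double-stranded RNA. Every group carries the p53 loss, the model is 1 transplanted tumour line, and host cells of BALB/c mice remain in the bulk tissue.

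OAS enzymes sit in the cytosol and are switched on by double-stranded RNA. The active enzymes join ATP into short 2′-5′-linked oligoadenylates (2-5A), a signal of the antiviral response. The genes are classic targets of interferon, so their mRNA is widely read as a trace of an interferon response. The Oas1 genes form the branch of the family with 1 synthetase unit and were multiplied in the mouse, and not every copy need encode an active enzyme. Oas2 and Oas3 encode larger proteins built from repeated units. Oasl1 and Oasl2 encode members with a ubiquitin-like tail. OASL1 lacks synthetase activity and is known for holding back translation of the Irf7 mRNA, and OASL2 keeps synthetase activity.

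In RefSeq's annotation of GRCm38.p6 all 7 lie on chromosome 5, in 2 groups. Oasl2 (114896926 to 114912245) and Oasl1 (114923143 to 114937911) are neighbours. Oas2 (120730333 to 120749886), Oas3 (120753098 to 120777684), Oas1b (120812635 to 120824163), Oas1g (120876142 to 120887613) and Oas1a (120896256 to 120907544) make up the other group. RefSeq lists Oas1b of the reference strain as a transcribed pseudogene. The Oas1 genes are close copies of each other, and how the counting treated strand and reads that fit several places is not given in the sources used here. Counts of Oas1a, Oas1b and Oas1g can therefore be split between copies and are uncertain to that extent.

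The start of an interferon-driven gene often carries an interferon-stimulated response element, whose core was searched as GAAA, any 2 bases, and GAAA again. RefSeq's table of promoters held 5 of the 7 genes (Oas1a, Oas1g, Oas3, Oasl1 and Oasl2). Within the 250 bases before the start, searched on both strands, Oas1a, Oas1g and Oas3 held this core, and Oasl1 and Oasl2 did not in these windows. The core was present in 2.98% of 32851 such windows. It was found in 10 of 23 listed interferon-stimulated genes with a window. The 100 bases before the start of the 3 genes with a match are shown because they carry the only such matches among these 5 windows. They are written 5′ to 3′ along the gene, from the minus strand of GRCm38.p6, with the matched bases in capitals (Oas1a at chr5:120907526-120907625, Oas1g at chr5:120887614-120887713, Oas3 at chr5:120777660-120777759). Of these 100 bases, 19 of Oas1a and 25 of Oas3 lie inside a longer gene model. For Oasl1 97 of the last 100 bases before the start do, and for Oasl2 8. The Oasl1 search therefore covered part of the gene model itself, and its upstream sequence was searched only in part.
Oas1a: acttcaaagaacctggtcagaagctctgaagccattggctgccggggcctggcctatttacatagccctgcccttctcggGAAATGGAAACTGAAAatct
Oas1g: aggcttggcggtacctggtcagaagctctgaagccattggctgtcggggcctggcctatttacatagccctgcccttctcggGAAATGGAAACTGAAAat
Oas3: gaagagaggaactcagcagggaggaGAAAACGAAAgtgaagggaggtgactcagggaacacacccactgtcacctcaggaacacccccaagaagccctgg
Oas1a and Oas1g carry the same capitals, which are 2 overlapping matches (GAAATGGAAA and GAAACTGAAA), 20 to 5 bases before the start in Oas1a and 18 to 3 in Oas1g. Their 250-base windows are identical at 82.8% of aligned positions, against 45.7% to 49.8% for the other pairs of these 5 genes. The Oas3 match, GAAAACGAAA, lies 75 to 66 bases before the start. A match describes these letters and is not a measured site.

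Libraries differed in depth and make-up, and these values touch the results. Gene counts were 11.9 to 63.3 M (mega) in 11 of the 12 inputs, and 0.498% to 3.26% of them fell at ribosomal RNA loci. The input of docetaxel tumour 3 held 3.27 M, with 67.6% at ribosomal RNA loci, and only 19 (Oas1a) to 237 (Oasl2) counts for each of the 7 genes. J2 libraries held 2.54 to 18.7 M, with 22.9% to 57.3% at ribosomal RNA loci in the combination, 4.17% to 6.13% in vehicle, 1.37% to 3.44% with ORIN1001 and 1.29% to 15.6% with docetaxel. Epithelial markers were counted in every group, none of the 8 at 0 throughout. In bulk tissue, fewer cells of a type and less RNA per cell cannot be told apart.

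Levels in the input RNA are given as CPM, gene counts per mega (M) of the library's total after scaling between libraries (TMM), and are compared within a gene only, since gene lengths were not used. Among the Oas1 genes, Oas1a stood at 75.6, 40.2 and 32.0 CPM in vehicle tumours 1, 2 and 3, and at 66.6, 61.8 and 62.0 with ORIN1001. It stood at 40.0, 53.4 and 23.8 with docetaxel and at 59.3, 37.7 and 64.9 in the combination. The highest Oas1a level was in a vehicle tumour, and all 3 treated groups overlapped with vehicle. Oas1b stood at 12.7, 8.38 and 9.40 CPM in vehicle, 13.8, 13.4 and 10.9 with ORIN1001, 8.19, 11.8 and 40.1 with docetaxel, and 17.0, 20.0 and 20.3 in the combination. The combination tumours lay above all vehicle and all ORIN1001 tumours for Oas1b, and the highest value of all came from the shallow docetaxel input. Oas1g stood at 29.9, 14.4 and 13.2 CPM in vehicle, 28.0, 25.5 and 23.1 with ORIN1001, 13.3, 19.3 and 41.3 with docetaxel, and 23.6, 23.0 and 28.2 in the combination. Vehicle tumour 1 and docetaxel tumour 3 were the high points for Oas1g, so no treatment separated from vehicle.

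Of the larger enzymes, Oas2 stood at 47.4, 9.01 and 10.1 CPM in vehicle, 18.3, 28.9 and 24.3 with ORIN1001, 13.4, 30.8 and 30.0 with docetaxel, and 44.6, 50.6 and 68.1 in the combination. Oas2 had the widest span of the 7, 7.56-fold from the lowest to the highest input, and the combination tumours lay above all single-drug tumours but not above vehicle tumour 1. Oas3, whose product responds to long double-stranded RNA, stood at 179.7, 58.8 and 59.2 CPM in vehicle, 209, 192 and 123 with ORIN1001, 45.5, 119 and 136 with docetaxel, and 237, 130.1 and 241 in the combination. Combination tumour 2 fell among the ORIN1001 and vehicle tumours for Oas3, so the groups overlapped.

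Of the OAS-like genes, Oasl1 stood at 56.5, 29.9 and 24.5 CPM in vehicle, 37.4, 41.1 and 33.5 with ORIN1001, 32.0, 62.3 and 50.1 with docetaxel, and 76.0, 70.7 and 67.9 in the combination. Oasl1 was the gene among the 7 for which the combination tumours lay above every tumour of the other 3 groups. How many of all genes do so was not counted. Taken in pairs, the combination lay above vehicle without overlap for 22.0% of all genes, above docetaxel for 16.7% and above ORIN1001 for 25.4%. Oasl2 stood at 229, 87.7 and 63.4 CPM in vehicle, 162 (tumour 1), 153 and 141 with ORIN1001, 77.3, 136 and 297 with docetaxel, and 211, 157 and 221 in the combination. Its groups overlapped throughout.

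**Figure D1:**
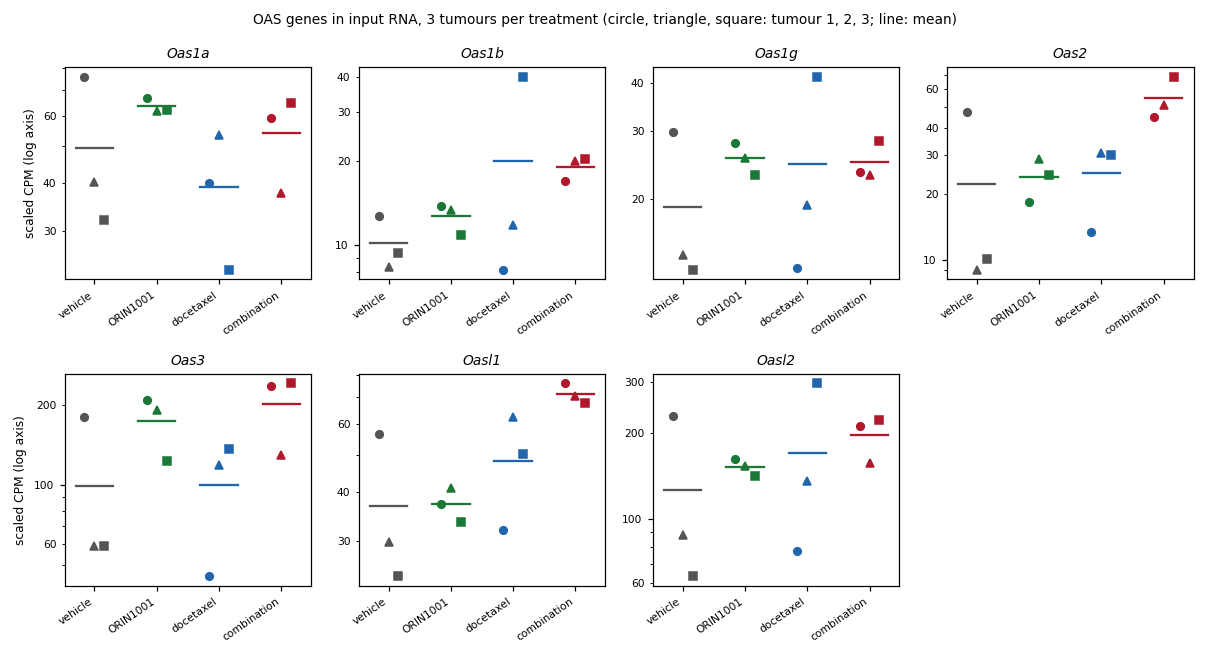
Scaled CPM (log axis) of the 7 OAS genes in the input RNA of each tumour, by treatment, with the mean of the 3 tumours as a line. Vehicle tumour 1 stands above vehicle tumours 2 and 3 for all 7 OAS genes. For Oasl1 all 3 combination tumours (67.9 to 76.0 CPM) lie above every other tumour, and the share of all genes with that pattern was not counted.

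Vehicle tumour 1 stood above vehicle tumours 2 and 3 for every one of the 7 genes, from 1.43 times their mean for Oas1b to 4.98 times for Oas2. Group means with their spread show what this does. Oasl1 averaged 37.0 ± 17.2 CPM (SD, n = 3) in vehicle, 37.3 ± 3.76 with ORIN1001, 48.1 ± 15.3 with docetaxel and 71.5 ± 4.11 in the combination. Oas2 averaged 22.2 ± 21.9, 23.8 ± 5.34, 24.7 ± 9.86 and 54.4 ± 12.2 CPM in the same order (SD, n = 3). The order of group means was vehicle, ORIN1001, docetaxel, combination for both, and the first 3 did not differ beyond their spread.

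The comparison of the combination with vehicle asked what both drugs together changed. All 7 OAS genes had a positive fold change, with a median log2 value of 0.91 against -0.03 over all 17768 genes tested, and 0 of 7 passed the test. In edgeR's quasi-likelihood test 4.77% of all genes passed in this comparison (2.8% higher), at a Benjamini-Hochberg adjusted p of 0.05. Oas2 had the largest log2 difference, 1.30 ± 0.56 (SE, 2.46-fold; edgeR adjusted p = 0.161). Oas3 followed with 1.03 ± 0.49 (edgeR adjusted p = 0.197), then Oasl1 with 0.95 ± 0.30 (edgeR adjusted p = 0.0766) and Oas1b with 0.91 ± 0.43 (edgeR adjusted p = 0.196). Oasl2 (0.63 ± 0.49), Oas1g (0.38 ± 0.38) and Oas1a (0.13 ± 0.33) had log2 differences near their SE. Of the 7, 2 (Oasl1 and Oas1b) did not overlap between the groups, with the combination higher, as held for 22.0% of all genes.

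Single libraries decided these calls. Without docetaxel tumour 3, which is in neither group but enters the shared estimate of spread, Oas1b (0.93, edgeR adjusted p = 0.014) and Oasl1 (0.97, edgeR adjusted p = 0.0374) passed, while 14.6% of all genes then passed as higher. Oas1a was no longer positive without vehicle tumour 2 or 3 or combination tumour 3 (-0.11 at the lowest). Without vehicle tumour 1, Oas2 stood at 2.50 (edgeR adjusted p = 0.0446). In DESeq2, Oasl1 passed (1.01, DESeq2 adjusted p = 0.0272).

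Neither drug alone moved an OAS gene past the threshold, and no gene in the table passed in either comparison (0.0% in each). At an unadjusted p under 0.05, edgeR counted 787 of 17768 genes with ORIN1001 and 1857 with docetaxel, while DESeq2 called 34 and 131 genes at its adjusted p. With ORIN1001 the 7 genes had a median log2 difference of 0.32 against -0.01 over all genes, and all 7 were positive, though Oas2 and Oasl1 turned negative without vehicle tumour 2 or 3 or ORIN1001 tumour 2, and Oasl2 without vehicle tumour 3. Oas3 had the largest, 0.82 ± 0.49 (edgeR adjusted p = 1.00). With docetaxel the median was 0.21 against -0.07, with Oas1b highest at 0.73 ± 0.46 (edgeR adjusted p = 0.601) and Oas1a lowest at -0.27 ± 0.34. Without docetaxel tumour 3 Oas1b stood at 0.002, and the median was -0.06 with 3 of 7 positive. These 3 comparisons share the vehicle tumours.

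Against each single drug, the combination gave its clearest values for Oasl1 and Oas2. Compared with ORIN1001, Oasl1 was at 0.94 ± 0.30 (edgeR adjusted p = 0.0611) and Oas2 at 1.19 ± 0.56 (edgeR adjusted p = 0.168). Again 0 of 7 passed, where 12.6% of all genes did. The genes Oasl1, Oas2 and Oas1b did not overlap between these groups, higher in the combination, as held for 25.4% of all genes. Compared with docetaxel, Oas2 was at 1.18 ± 0.58 (edgeR adjusted p = 0.240), Oas3 at 1.04 ± 0.50 (edgeR adjusted p = 0.226) and Oasl1 at 0.58 ± 0.31 (edgeR adjusted p = 0.282), with 0 of 7 past the threshold against 7.43% of all genes. In that comparison Oasl1 and Oas2 did not overlap, against 16.7% of all genes.

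Without docetaxel tumour 3, Oas1b passed against docetaxel (0.92, edgeR adjusted p = 0.0191, against 0.18 with it) where 12.5% of all genes were higher, and Oasl1 (0.95, edgeR adjusted p = 0.0326) and Oas1b (0.61, edgeR adjusted p = 0.0388) passed against ORIN1001 where 18.5% were higher. Oasl1 also passed against ORIN1001 without vehicle tumour 1 (edgeR adjusted p = 0.0400) or docetaxel tumour 1 (edgeR adjusted p = 0.0496), and Oas2 without vehicle tumour 1 (edgeR adjusted p = 0.0457). The interaction (what the combination did beyond the 2 drugs' own effects added on the log2 scale) passed for 0 of 7 and 0.0% of all genes. Of the 17768 genes, 3134 had an unadjusted p under 0.05 there, and DESeq2 called 791. It was 1.08 ± 0.80 for Oas2 and 0.56 ± 0.43 for Oasl1.

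**Figure D2:**
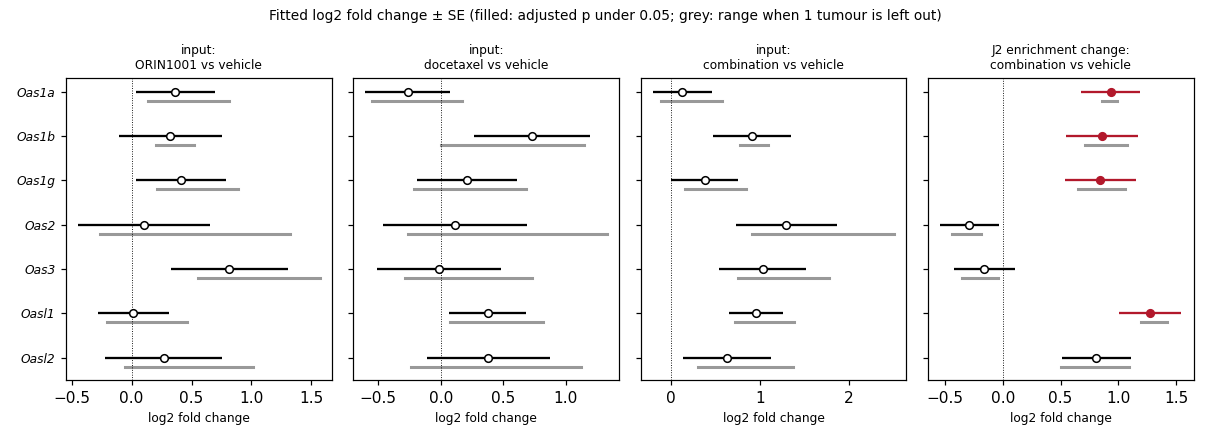
Fitted log2 fold changes of the 7 OAS genes with their SE (lines), for 3 input comparisons with vehicle and for the change of the J2 to input ratio in the combination. Filled points have an adjusted p under 0.05, and grey bars span the values with 1 tumour left out. In the combination input all points lie above 0 and none is filled, while Oasl1, Oas1a, Oas1b and Oas1g are filled for the J2 change.

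The other genes of the pathway and of the interferon response were taken from lists. Of 3 listed genes of the 2-5A pathway, 0 passed in the combination against vehicle. Their log2 differences were -0.14 for Abce1 (a ribosome recycling factor), -0.34 for Pde12 and -0.38 for Akap7 (both of which degrade 2-5A). Of 14 tested sensors and adaptors of double-stranded RNA, 0 were higher and 1 (Irf3) was lower, with a median of -0.10. Of 30 other interferon-stimulated genes 0 passed, with a median of 0.23. Where 2.8% of all genes were higher and 4.77% passed in either direction, 7 of 17 interferon-gamma-induced genes were higher, with a median of 1.58. Among them were the chemokine gene Cxcl9 (3.36 ± 0.59), Ciita, the master switch of MHC class II genes (2.49 ± 0.41), Tap1 (1.64 ± 0.38) and Cxcl10 (1.59 ± 0.33). Of 14 interferon receptors and signal transducers, 1 was higher, Irf1 (0.91 ± 0.22). Without docetaxel tumour 3 the counts were 0 of 3, 1 higher and 2 lower of 14, 1 higher and 3 lower of 30, 12 of 17 higher, and 1 higher and 3 lower of 14. Of all genes 14.6% were higher in that fit. Without vehicle tumour 3, combination tumour 2 or combination tumour 3 the comparison called 0 genes in the whole table, and so 0 of each list.

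No interferon ligand gene could be tested. Of 20 listed, 0 passed the filter on low counts, and their summed level did not exceed 0.855 CPM in any input. Levels of immune cell markers are given beside these values. The summed level of 11 T and NK cell markers was 19.9 to 35.9 CPM in the combination against 8.98 to 10.6 in vehicle, with 0 of 10 tested past the threshold and a median log2 difference of 1.41. That of 8 dendritic cell markers was 92.3 to 102 CPM against 41.0 to 51.0, with 2 of 8 higher (Clec9a and Itgax), where 2.8% of all genes were. Most of this sum was Itgax. It had 1202 counts in combination tumour 1 and 1106 in vehicle tumour 1, where the next marker, Zbtb46, had 123 and 226. The summed level of 10 macrophage and monocyte markers was 507 to 739 CPM against 379 to 510, overlapping, with 0 of 10 past the threshold. No gene of these 3 lists was at 0 in all 3 inputs of a group. The summed level of neutrophil markers was 21.3 to 34.5 CPM against 52.0 to 101. Of 7 tested 3 were lower (S100a8, S100a9 and Cd177), where 4.77% of all genes passed in either direction. The part of these cells in the OAS levels was not tested.

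Across the 12 inputs the 7 genes did not vary as 1 block. Spearman's rho of log2 CPM over their 21 pairs ran from 0.07 (Oas1a with Oas1b) to 0.95 (Oas1g with Oasl2), with a median of 0.66. Oas2 and Oasl1 formed another close pair at 0.92, and Oas1a was the gene least like the others, at 0.07 to 0.57. These points share their library, its depth and its treatment, and rho is given as a description. Among 12487 genes ranked, Oasl1 was most like Sectm1b (0.97), Irf1 (0.95) and Cxcl10 (0.94), and Oas2 most like Ifi203 (0.97), H2-Q6 (0.94) and Tapbp (0.94). Oas1b was nearest Cd274 (0.97), Mx1 (0.95) and Coro7 (0.94), and Oas3 nearest Rnf213 (0.97), Igtp (0.92) and Stat2 (0.91). Oasl2 was nearest Adar (0.96), Dtx3l (0.95) and Trim34b (0.93), and Oas1g nearest Ddx60 (0.94), Uba7 (0.92) and Lynx1 (0.90). Oas1a was nearest Irf9 (0.92), Ddx58 (0.91) and Tdrd7 (0.91).

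**Figure D3:**
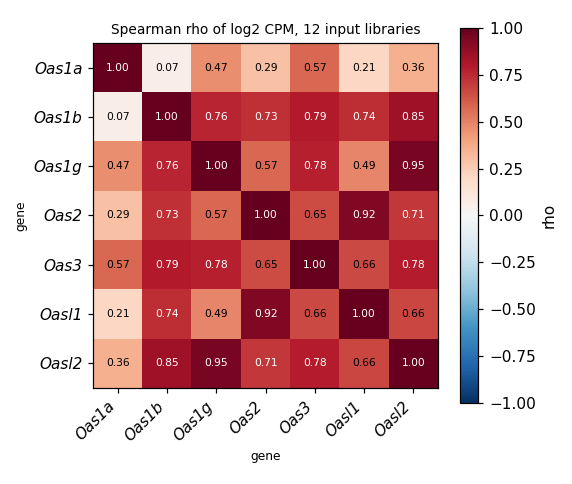
Spearman's rho of log2 CPM between each pair of the 7 OAS genes over the 12 input libraries (color scale from -1 to 1, values printed in the cells). Oas1g with Oasl2 (0.95) and Oas2 with Oasl1 (0.92) are the closest pairs, and the row of Oas1a is the palest.

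The J2 libraries asked how large a share each transcript had of the RNA recovered with the antibody to double-stranded RNA, relative to the input of the same tumour. The ratio is given as log2(J2/input) on a scaling common to all 24 libraries, and values above 0 mean a larger scaled share in J2. These values are relative to the other genes of a library and do not give an amount recovered. Averaged over the 4 treatments, 2 of 7 genes were lower in J2. Oasl2 was at -0.40 ± 0.11 (edgeR adjusted p = 0.00515) and Oas3 at -0.28 ± 0.09 (edgeR adjusted p = 0.0183). In this fit 30.0% of all 17338 genes were lower and 25.0% higher. Oas2 was the highest, at 0.21 ± 0.09 (edgeR adjusted p = 0.0598). Oas1g (0.17 ± 0.11), Oas1b (0.17 ± 0.11), Oasl1 (-0.03 ± 0.09) and Oas1a (-0.06 ± 0.09) lay within 2 SE of 0. No OAS gene was below input in all 12 tumours, as 4.58% of all genes were, and none was above input in all 12, as 3.26% were.

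The call of Oasl2 held with any 1 tumour left out. That of Oas3 was lost without vehicle tumour 1 or 3, ORIN1001 tumour 2, or combination tumour 2 or 3 (edgeR adjusted p = 0.0539 to 0.0648). Oas2 passed as higher without vehicle tumour 3, ORIN1001 tumour 2, docetaxel tumour 2 or 3, or combination tumour 2 (edgeR adjusted p = 0.0164 to 0.0483). Without docetaxel tumour 3, Oas1g (0.25, edgeR adjusted p = 0.0278) and Oas1b (0.24, edgeR adjusted p = 0.0390) also passed, where 29.7% of all genes were higher.

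Within treatments the ratio of the 7 genes differed. In vehicle tumours 1, 2 and 3 the log2 ratio of Oas1a was -0.67, -0.39 and -0.47, that of Oasl1 -0.43, -0.63 and -0.38, and that of Oasl2 -0.55, -0.45 and -0.48. All 3 genes were below input in each vehicle tumour. The test called Oas1a lower (-0.51 ± 0.18, edgeR adjusted p = 0.0312), 1 of 7 against 21.1% of all genes. The calls were missed by Oasl1 (-0.48 ± 0.19, edgeR adjusted p = 0.0546) and Oasl2 (-0.50 ± 0.21, edgeR adjusted p = 0.0699). The Oas1a call was lost without any 1 vehicle tumour or ORIN1001 tumour 3 (edgeR adjusted p = 0.0544 to 0.213). Without docetaxel tumour 3, both Oasl1 (edgeR adjusted p = 0.0268) and Oasl2 (edgeR adjusted p = 0.0376) passed, where 24.4% of all genes were lower.

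With ORIN1001, Oasl2 was the only one of the 7 called, at -0.59 ± 0.21 (edgeR adjusted p = 0.0457), where 14.9% of all genes were lower. Its tumours read -0.41, -0.72 and -0.64, below input in each, but the call was lost in 9 of the 12 fits that leave out 1 tumour (edgeR adjusted p = 0.0559 to 0.207). It was kept without docetaxel tumour 3 or combination tumour 1 or 2. With docetaxel, Oasl2 was again the only one of the 7 called, at -0.81 ± 0.21 (edgeR adjusted p = 0.0163), where 12.0% of all genes were lower. Its tumours read -0.56, -0.60 and -1.28, the lowest from the tumour with the shallow input. The call was lost without docetaxel tumour 2 (edgeR adjusted p = 0.0633).

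In the combination, 3 genes were higher in J2 than in input. Oasl1 read 0.47, 0.93 and 0.98 in tumours 1, 2 and 3, Oas1g 0.57, 1.26 and 0.85, and Oas1b 1.06, 0.93 and 0.69, all above input. The test called all 3 higher in J2, which is 3 of 7 against 16.3% of all genes. Oas1g was at 0.89 ± 0.22 (edgeR adjusted p = 0.00593), Oas1b at 0.88 ± 0.22 (edgeR adjusted p = 0.00684) and Oasl1 at 0.80 ± 0.19 (edgeR adjusted p = 0.00493). Oas1a read 0.28, 0.36 and 0.61 (0.42 ± 0.18, edgeR adjusted p = 0.0829, and 0.0156 without docetaxel tumour 3, where 21.2% of all genes were higher). Oasl2 was mixed at -0.30, 0.90 and 0.33, Oas2 near 0 at 0.19, -0.27 and -0.05, and Oas3 below input at -0.05, -0.61 and -0.53, none of them past the threshold.

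**Figure D4:**
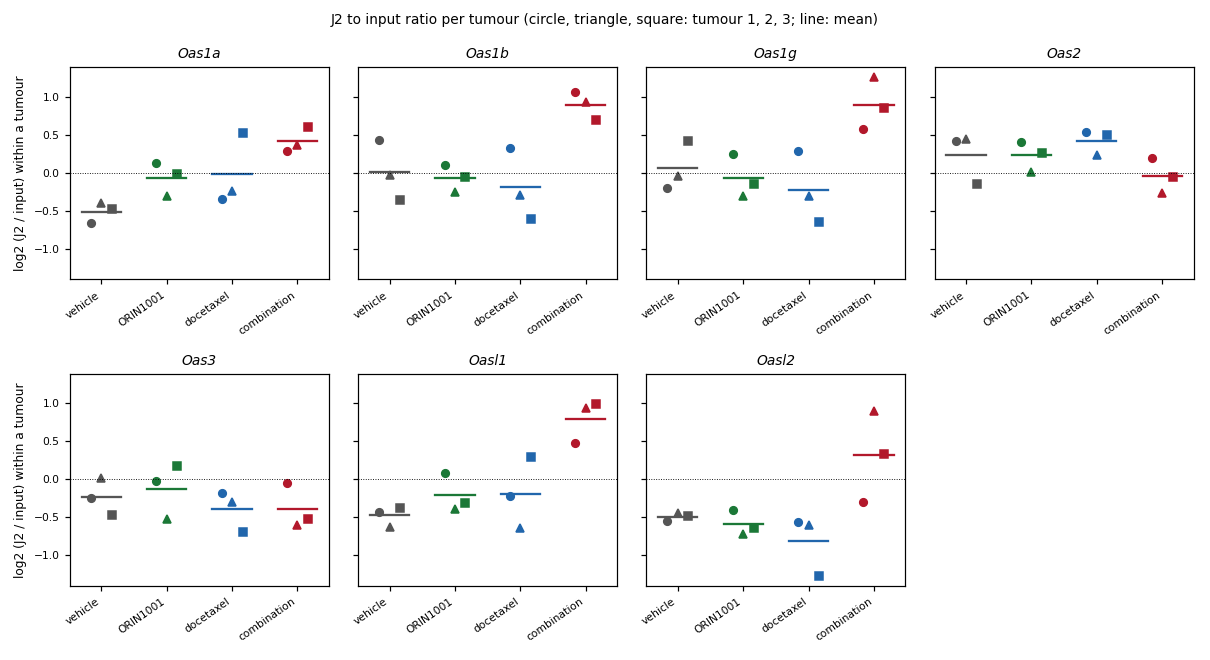
The log2 ratio of J2 to input in each tumour for the 7 OAS genes, by treatment, with the mean of 3 tumours as a line and no difference at 0. For Oasl1, Oas1a, Oas1b and Oas1g all 3 combination tumours lie above 0 and above every vehicle tumour, which is not so for Oas2 and Oas3. For Oasl2 they also lie above every vehicle tumour, with combination tumour 1 below 0 (-0.30). How many of all genes separate in this way was not counted.

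The change of this ratio between treatments was tested directly. From vehicle to the combination it rose for 4 of 7 genes, where 12.7% of all genes rose and 29.9% changed in either direction. Oasl1 had the largest rise, 1.28 ± 0.27 on the log2 scale, a 2.42-fold higher ratio (edgeR adjusted p = 0.00374). Oas1a rose by 0.93 ± 0.25 (edgeR adjusted p = 0.0139), Oas1b by 0.86 ± 0.31 (edgeR adjusted p = 0.0490) and Oas1g by 0.84 ± 0.30 (edgeR adjusted p = 0.0489). The value for Oasl2 was 0.81 ± 0.30 (edgeR adjusted p = 0.0524). The genes of the larger enzymes did not pass and had negative values, -0.29 ± 0.25 for Oas2 (edgeR adjusted p = 0.412) and -0.16 ± 0.27 for Oas3 (edgeR adjusted p = 0.686).

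Levels on the common scale show both sides of these ratios. In J2, Oasl1 stood at 38.3, 18.4 and 17.1 CPM in vehicle and at 94.7, 121 and 119 in the combination, without overlap, while its input on the same scale stood at 51.6, 28.4 and 22.2 and at 68.5, 63.7 and 60.0. The combination was above vehicle in both, with a wider gap in J2. Oas1b in J2 stood at 15.7, 7.78 and 6.66 CPM in vehicle and 31.9, 34.2 and 28.9 in the combination, and Oas1g at 23.7, 13.2 and 15.9 and at 31.4, 49.5 and 44.9. The J2 groups of both genes were also separate, and the share of all genes with separate J2 groups was not counted. Oas1a in J2 overlapped, at 43.4, 29.1 and 20.9 CPM against 64.9, 43.4 and 87.4, with the lowest combination value just under the highest vehicle value.

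The rise of Oasl1 held with any 1 of the 12 tumours left out (log2 1.20 to 1.42, edgeR adjusted p = 0.00031 to 0.0219). That of Oas1a was lost without vehicle tumour 1 (edgeR adjusted p = 0.0603) or combination tumour 3 (edgeR adjusted p = 0.0551). In a fit without the tumour block none of the 4 passed (edgeR adjusted p = 0.0658 to 0.398). The rises of Oas1b and Oas1g sat at the threshold. For Oas1b the call was kept only without docetaxel tumour 1 or 3 and lost in the other 10 fits (edgeR adjusted p up to 0.170), and for Oas1g it was kept only without vehicle tumour 3, docetaxel tumour 1 or 3, or combination tumour 1 and lost in the other 8 (edgeR adjusted p up to 0.181). The call of Oasl2 was gained without docetaxel tumour 1 (edgeR adjusted p = 0.0495), docetaxel tumour 3 (edgeR adjusted p = 0.0160, where 18.6% of all genes rose) or combination tumour 1 (edgeR adjusted p = 0.0146).

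The share of counts at ribosomal RNA loci moved with this result, since it was higher in all 3 combination J2 libraries than in all 3 of vehicle. With the ribosomal RNA rows left out, the rises of Oasl1 and Oas1a still passed, and those of Oas1b (0.82, edgeR adjusted p = 0.0569) and Oas1g (0.80, edgeR adjusted p = 0.0599) did not. Combination J2 libraries held 2.54 to 11.04 M gene counts against 12.3 to 14.9 M in vehicle, and the part of depth was not tested. Of 8 epithelial markers, 4 rose in the same test (Krt5, Krt8, Krt14 and Krt18), where 12.7% of all genes rose. So did 2 of 10 macrophage and monocyte markers (C1qb and C1qc) and 3 of 8 fibroblast markers (Col1a1, Col1a2 and Col3a1). How many of these markers fell, and the other marker lists, are not given here for this test. From vehicle to ORIN1001 or docetaxel the ratio changed for 0 of 7 and 0.0% of all genes, with 605 and 730 of 17338 genes at an unadjusted p under 0.05 and 6 genes called by DESeq2 for docetaxel. The largest values there were those of Oas1a, 0.45 ± 0.25 with ORIN1001 and 0.42 ± 0.26 with docetaxel.

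Of the listed genes, 2 of the 3 in the 2-5A pathway fell in the J2 change of the combination. Abce1 fell by 1.80 (SE 0.31, edgeR adjusted p = 0.0016) and Pde12 by 1.49 (SE 0.28, edgeR adjusted p = 0.00212), where 17.1% of all genes fell. Akap7 stood at -0.37 ± 0.35. Of 14 sensors and adaptors 3 rose and 1 fell, and of 30 other interferon-stimulated genes 8 rose and 3 fell. Of 17 interferon-gamma-induced genes 1 rose and 1 fell. Over all genes 12.7% rose and 17.1% fell. The median log2 change was 0.84 for the 7 OAS genes, 0.32, 0.34 and -0.23 for these 3 lists, and -0.00 over all genes. Oas1c, the OAS gene outside the 7 with enough counts to test (1 of 5), stood at 1.19 and did not pass.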

How the data were processed

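The deposited table holds whole-number counts per gene for 24 libraries, made by the authors. The mm10 build, featureCounts 2.0.3, STAR 2.7.3a and fastp 0.23.2 are named in the submitters' processing notes without role or order. Of 53465 rows, 53274 were matched to a symbol by Ensembl identifier. The 7 genes and the gene lists were chosen with earlier results of these data known. The table of repeat elements was not used here, and some pathway genes are not reported here.

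Counts were tested with edgeR 4.0.16 (TMM scaling, filterByExpr with a minimum count of 10 and a minimum total of 15, quasi-likelihood F test, two-sided, Benjamini-Hochberg over all genes, threshold 0.05). The 12 inputs were fitted with 1 coefficient per treatment (17768 genes). All 24 libraries were fitted with the tumour as a block and a J2 coefficient per treatment (17338 genes). The series design text says that each J2 library has an input of the same tumour, and treatment and replicate number in the labels were used to match them. Deviations from group means correlated above 0.1 in 11 of 12 such pairs. Ratios per tumour add 0.5 counts. Replicates are named biological in the labels, and no pair of the 24 was near sampling noise (smallest chi-square per degree of freedom 11.5). Counts were also simulated with 200 genes changed and 1 mean level per gene, without other tumour or J2 differences. With |log2| changes of 1, the input test recovered 6.5% and the J2 change 0%, and at 2 they recovered 79% and 77%. In the data 29.9% of all genes (5176) passed for the J2 change and 4.77% (848) in the input for the combination against vehicle. Both counts exceed the 200 genes changed in the simulation, so the simulated shares do not give the power of either test. The 7 genes were named in every comparison. Of each list, up to 4 genes past the threshold, or 2 where none passed, could be named, and some lists are named beyond this after their values were seen. The 3 genes nearest each of the 7 by rho were named among those with an average log2 CPM of at least 0. Alternatives were DESeq2 1.42.0, its size factors in edgeR (RLE), no filter, no ribosomal RNA rows, the compared treatments alone, the block added or removed, and each tumour left out.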

Additional observations from a re-analysis of the deposited data

Results flagged for a closer look

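The change of the J2 to input ratio differed between the combination and vehicle by a direct test of the difference for 4 of the 7 genes. The log2 values were 1.28 for Oasl1, 0.93 for Oas1a, 0.86 for Oas1b and 0.84 for Oas1g. The share of all genes that rose in the same test was 12.7%. All 3 combination tumours lay above all 3 vehicle tumours for each of these genes, and for Oasl2, which did not pass. The test was run on the same libraries, so this separation is a description and adds no support of its own. How many of all genes separate in this way was not counted. The calls of Oas1b and Oas1g were lost in 10 and 8 of the 12 fits that leave out 1 tumour, and that of Oas1a in 2.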

How the results depend on the processing

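The 7 genes in 14 comparisons gave 1176 values with 1 tumour left out, of which 1047 kept their direction and their side of the threshold, 39 lost a call, 22 gained one and 68 changed sign. Under the other settings 482 of 525 values kept both, 21 lost a call, 13 gained one and 9 changed sign. No value that changed sign was past the threshold in either fit. The cause of these shifts was not tested. Without the tumour block in the J2 fit the calls on the J2 change of Oasl1 (edgeR adjusted p = 0.0658), Oas1a (0.153), Oas1g (0.212) and Oas1b (0.398) were lost, as were those on the mean J2 ratio of Oasl2 (0.153) and Oas3 (0.38), and those within treatments of Oas1a in vehicle (0.236), Oasl2 with ORIN1001 (0.445) and docetaxel (0.206), and Oasl1 (0.081), Oas1g (0.0632) and Oas1b (0.139) in the combination. The ORIN1001 call of Oasl2 was also lost with RLE scaling (0.0613) or without ribosomal RNA rows (0.0578), and the vehicle call of Oas1a with no low-count filter (0.0787). With RLE scaling (0.0612 and 0.0609) or no low-count filter (0.161 and 0.133) the J2 changes of Oas1b and Oas1g were lost. With the compared treatments alone, edgeR called Oas1b against vehicle (adjusted p = 0.0307), and Oas1b (0.0256), Oas2 (0.0122) and Oasl1 (0.00591) against ORIN1001. DESeq2 called Oasl1 against ORIN1001 (DESeq2 adjusted p = 0.0224) and the J2 change of Oasl2 (0.0445), and in J2 against input the mean ratio of Oas2 (0.00981), Oas2 with docetaxel (0.0367), Oas1a in the combination (0.0142) and Oasl1 in vehicle (0.0237). The mean ratio of Oas2 also passed in edgeR with RLE scaling (0.0271) or without ribosomal RNA rows (0.0345). The input of docetaxel tumour 3 was both the shallowest and the richest in ribosomal RNA, and these cannot be told apart.

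Counts over all genes moved as follows. DESeq2 called 34 genes with ORIN1001 and 131 with docetaxel against vehicle (0 in edgeR for each), 2489 in the combination against vehicle (848), 2246 against docetaxel (1320), 3460 against ORIN1001 (2244), 791 for the interaction (0) and 6 for the J2 change with docetaxel (0). Same-numbered inputs of different treatments deviated together (correlation above 0.1) in 3 of 18 pairs, from -0.358 to 0.246, so the replicate number was not taken as a pairing. With it as a replicate block, edgeR called 37, 0 and 717 genes in the combination against vehicle, docetaxel and ORIN1001. With the compared treatments alone it called 3124, 0 and 5489. With no low-count filter it called 17 genes for the J2 change with ORIN1001 and 141 with docetaxel. With no tumour block it called 4489 genes for the J2 ratio in vehicle (7172 with it), 2759 with ORIN1001 (4867), 2181 with docetaxel (4146), and 2937 for the J2 change in the combination (5176).

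With 1 tumour left out, edgeR called 0 to 1 genes with either drug against vehicle, 0 to 5180 in the combination against vehicle, 0 to 4397 against docetaxel, 0 to 6507 against ORIN1001 and 0 to 1527 for the interaction. For the J2 ratio the counts ran from 3670 to 9228 in vehicle, 2108 to 7175 with ORIN1001, 496 to 7117 with docetaxel, 3248 to 8223 in the combination and 8422 to 11017 for their mean. For the J2 change they ran from 0 to 3 with ORIN1001, 0 to 10 with docetaxel and 3229 to 7375 in the combination. In each of these ranges that reaches above 10 the highest count came without docetaxel tumour 3. The combination against vehicle called 0 genes without vehicle tumour 3 or combination tumour 2 or 3.

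Of the fitted log2 differences of the 7 genes printed above, these changed sign. Oas3 with docetaxel (-0.01) stood at 0.072 in DESeq2, 0.044 with RLE scaling, 0.15 with the replicate block and 0.035 with the compared treatments alone, and at -0.28 to 0.73 with 1 tumour left out. The mean J2 ratio of Oasl1 (-0.03) was 0.0017 with RLE scaling and -0.072 to 0.043 with 1 tumour left out. With 1 tumour left out, the other values against vehicle were, with docetaxel, -0.55 to 0.17 for Oas1a, -0.21 to 0.68 for Oas1g, -0.26 to 1.33 for Oas2 and -0.24 to 1.12 for Oasl2. With ORIN1001 they were -0.26 to 1.32 for Oas2, -0.21 to 0.46 for Oasl1 and -0.052 to 1.01 for Oasl2, and in the combination -0.11 to 0.57 for Oas1a. Against docetaxel the combination gave -0.24 to 0.92 for Oas1b. The interaction of Oas2 ran from -0.15 to 1.44 and its J2 ratio in the combination from -0.16 to 0.10.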
